A study of Rattus norvegicus with 132 samples.

Results

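Genes that move chloride, bicarbonate and water across the gut lining were followed in epithelium of rat jejunum and colon. Rows were taken by gene symbol from the 2 deposited count tables, and 9 of the 10 listed symbols were found among 21837 genes: Slc26a3, Slc26a6, Slc9a3, Slc9a2, Slc12a2, Cftr, Slc4a4, Car1 and Aqp8. The symbol Car4 is not among the rows. RefSeq gives Ca4 as an alias of that gene, and the row Ca4 is described beside the 9 members and is not counted with them.

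The 132 libraries came from Sprague Dawley rats, in 22 groups of 6. Irradiated rats had 5 abdominal fractions of 4 Gy, and epithelium of jejunum and colon was taken on day 4 or day 7. In each tissue and on each day the irradiated groups were rats given nothing further, rats given compound Kushen powder by mouth (some descriptions call it a pill), rats given water by mouth as its vehicle, rats given compound Kushen injection into the peritoneum, and rats given its vehicle, 0.25% Tween-80 with 25 mM HEPES, by the same route. Non-irradiated rats, with no treatment, were the group common to both days. The labels name no rat, so whether colon and jejunum libraries share rats is not known, and p-values measure the spread between libraries.

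Absorption of salt in the gut is largely electroneutral: a sodium-hydrogen exchanger and a chloride-bicarbonate exchanger work side by side in the apical membrane of surface and villus cells, carbonic anhydrases supply the proton and the bicarbonate, and water follows. Secretion runs the other way and belongs largely to crypt cells, where a basolateral cotransporter loads chloride, a basolateral sodium-bicarbonate cotransporter loads bicarbonate, and the Cftr channel releases both at the lumen. Loss of SLC26A3 in humans causes congenital chloride diarrhoea, and loss of CFTR causes cystic fibrosis with its intestinal obstruction.

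Promoter sequence was read from RefSeq (build GRCr8), in which 8 of the 10 genes have an entry. The 250 bases before the start of 4 absorptive genes are printed as 1 gene of each absorptive role: an anion exchanger, a sodium-hydrogen exchanger, a carbonic anhydrase and a water channel. The positions are chr6:53751165-53751414 on the plus strand for Slc26a3, chr1:30996003-30996252 on the minus strand for Slc9a3, chr10:70325108-70325357 on the plus strand for Car4 and chr1:187424193-187424442 on the plus strand for Aqp8. Each reads 5′ to 3′ along the gene, and capitals mark matches, on both strands, to CAAAG (reverse complement CTTTG), a core of sites that HNF4 factors bind, and to TTTAT (reverse complement ATAAA), a core of sites that CDX factors bind.
Slc26a3: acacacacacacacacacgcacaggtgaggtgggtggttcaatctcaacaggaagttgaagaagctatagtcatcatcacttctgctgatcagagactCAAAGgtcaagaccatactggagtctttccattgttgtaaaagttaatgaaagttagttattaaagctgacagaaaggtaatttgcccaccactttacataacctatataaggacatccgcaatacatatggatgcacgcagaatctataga
Slc9a3: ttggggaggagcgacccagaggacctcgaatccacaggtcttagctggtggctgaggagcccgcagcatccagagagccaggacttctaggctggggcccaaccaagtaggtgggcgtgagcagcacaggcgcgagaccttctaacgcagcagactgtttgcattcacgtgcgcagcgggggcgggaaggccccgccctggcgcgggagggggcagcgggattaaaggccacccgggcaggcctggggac
Car4: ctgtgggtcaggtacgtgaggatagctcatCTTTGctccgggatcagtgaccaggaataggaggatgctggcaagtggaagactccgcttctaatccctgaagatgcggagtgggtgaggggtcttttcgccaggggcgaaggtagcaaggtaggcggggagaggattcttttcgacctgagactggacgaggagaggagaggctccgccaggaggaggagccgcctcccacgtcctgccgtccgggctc
Aqp8: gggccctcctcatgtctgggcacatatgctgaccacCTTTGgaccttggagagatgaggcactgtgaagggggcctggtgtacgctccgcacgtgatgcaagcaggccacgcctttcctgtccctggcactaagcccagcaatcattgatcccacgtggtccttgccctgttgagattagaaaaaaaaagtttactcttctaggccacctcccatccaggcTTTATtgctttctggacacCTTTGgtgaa
CAAAG stood in the window of 4 of the 8 genes, namely Slc26a3, Car4, Aqp8 and Slc4a4, and in 48.2% of all 33469 promoters of the table. TTTAT stood in 2 of the 8, Aqp8 and Cftr, and in 39.3% of all promoters. A match describes letters only, and Slc9a3 has neither motif in this window.

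Library totals ran from 17196039 to 19800746 counts. Levels are CPM (counts scaled to a common library total) with TMM scaling over all 132 libraries, given as lowest, median and highest of 6 libraries or as mean ± SD. A gene was called where the adjusted p of the edgeR quasi-likelihood test (Benjamini-Hochberg over all genes tested) was under 0.05. The 8 epithelial markers found summed to between 11316 and 33048 CPM in the untreated and non-irradiated groups, smooth muscle markers to between 4.85 and 68.5 CPM, and the colon region markers Hoxd10, Hoxd11 and Hoxd9 were at 0 in non-irradiated jejunum. Epithelial markers were called lower in jejunum for 1 of 8 at day 4 and 3 of 8 at day 7, and 0 were called higher. Their jejunal sum was 17828 to 33048 CPM at day 4 and 16346 to 28372 CPM at day 7, against 23035 to 30785 CPM. In colon 0 of 8 were called at day 4, and 1 was called higher and 1 lower at day 7. Other measures also moved with irradiation. In colon the fibroblast list had 6 of 6 markers called higher at both days (summed 25.2 to 86.3 CPM at day 4 and 11.3 to 215 CPM at day 7, against 4.29 to 11.0 CPM in non-irradiated colon), and the mitochondrial share of counts was 9.16% ± 1.02 at day 4 and 3.95% ± 0.607 at day 7, against 12.3% ± 1.26 in non-irradiated colon (SD, n = 6). Of the neutrophil markers 4 of 4 tested were called higher in colon at both days, and the list summed to 6.48 to 97.1 CPM at day 4 and 17.9 to 38.4 CPM at day 7, against 0.258 to 1.19 CPM in non-irradiated colon. Proliferating crypt markers were called higher in colon for 5 of 7 at day 4 and 7 of 7 at day 7 (190 to 326 CPM and 491 to 803 CPM, against 85.2 to 208 CPM). In jejunum 5 of 7 proliferating crypt markers were called higher at day 4 and 7 of 7 at day 7, and at day 7 the 9 jejunal enterocyte markers summed to between 16846 and 77174 CPM, against 100978 to 119305 CPM in non-irradiated jejunum. Goblet cell markers were called lower in jejunum for 6 of 7 at day 4 and 5 of 7 at day 7 (420 to 1316 CPM and 933 to 3056 CPM, against 1529 to 13375 CPM). Of smooth muscle markers 3 of 6 tested were called higher in jejunum on both days. The smooth muscle list summed to 7.88 to 36.0 CPM at day 4 and 7.16 to 22.5 CPM at day 7, against 4.85 to 11.4 CPM. Fibroblast markers were called higher in jejunum for 0 of 6 at day 4 and 3 of 6 at day 7. The mitochondrial share in jejunum was 12.7% ± 5.86 at day 4 and 5.39% ± 1.83 at day 7, against 12.3% ± 6.95 (SD, n = 6). The part of these measures in the results below was not tested, and in bulk samples fewer cells of a type and less RNA per cell cannot be told apart.

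The non-irradiated tissues differed in their levels of most of these genes. Slc26a6 and Aqp8 were called higher in jejunum, and Slc26a3, Slc9a3, Slc12a2 and Car1 were called higher in colon. With Cftr, 3 of the 9 members were called higher and 4 lower in jejunum than in colon, where 29.4% of all 13741 genes were called higher and 41.1% lower.

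Slc26a6, an apical anion exchanger that also carries oxalate, had 979, 1110 and 1257 CPM (lowest, median, highest) in jejunum, against 10.5, 11.9 and 13.7 CPM in colon. All jejunal libraries were far above all colonic ones, and the fit gave a log2 fold change of 6.62 ± 0.31 (SE), a 98.0-fold difference (edgeR adjusted p = 5.33e-30). Slc26a3, the other apical chloride-bicarbonate exchanger of the set, had the opposite distribution. It had 215, 265 and 314 CPM in jejunum, against 1546, 1695 and 2225 CPM in colon, a log2 fold change of -2.59 ± 0.58 (edgeR adjusted p = 6.69e-05). The ranges do not overlap, so the 2 exchangers of one family differed between the tissues in opposite directions, with Slc26a3 detected in both.

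Car1, a cytosolic carbonic anhydrase of colonic surface cells, had 0.369 to 1.33 CPM in jejunum (5 to 15 counts a library), against 15363 to 18979 CPM in colon. This was the widest tissue difference of the set, with a log2 fold change of -15.10 ± 1.0 (edgeR adjusted p = 4.06e-22). Ca4, a carbonic anhydrase anchored to the apical membrane, averaged 100 ± 28.3 CPM in jejunum and 1052 ± 107 CPM in colon (SD, n = 6 each), a log2 fold change of -3.41 ± 0.51 (edgeR adjusted p = 1.61e-08).

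Slc12a2, the basolateral sodium-potassium-chloride cotransporter, had 6.84, 13.8 and 26.8 CPM in jejunum, against 165, 273 and 355 CPM in colon. The groups stand wide apart, with a log2 fold change of -4.33 ± 0.41 (edgeR adjusted p = 3.65e-15). Slc9a3, the main apical sodium-hydrogen exchanger of the gut, averaged 850 ± 69.8 CPM in jejunum and 1707 ± 184 CPM in colon (log2 fold change -1.14 ± 0.40, edgeR adjusted p = 0.009). In library series 2 alone, the second of the 3 sets of libraries told apart by the first digit of their names, it was -0.88 with adjusted p = 0.168.

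Aqp8, a water channel, had 64.2, 91.1 and 113 CPM in jejunum, against 1.81, 5.98 and 9.36 CPM in colon. All jejunal libraries were higher, by a log2 fold change of 5.26 ± 1.52 (edgeR adjusted p = 0.00166). Cftr averaged 160 ± 33.8 CPM in jejunum and 89.9 ± 14.4 CPM in colon (log2 fold change 0.64 ± 0.16, edgeR adjusted p = 0.000314). Its direction rests on the scaling, since library totals without TMM factors gave -0.04 with adjusted p = 0.853, when the median of all genes stood at -0.87 rather than -0.22. Slc9a2, a second apical sodium-hydrogen exchanger, and Slc4a4, the basolateral sodium-bicarbonate cotransporter, were not called (-0.34 ± 0.38 and -0.20 ± 0.29). On library totals both were called lower in jejunum (-1.0 and -0.85), at about that median.

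**Figure D1:**
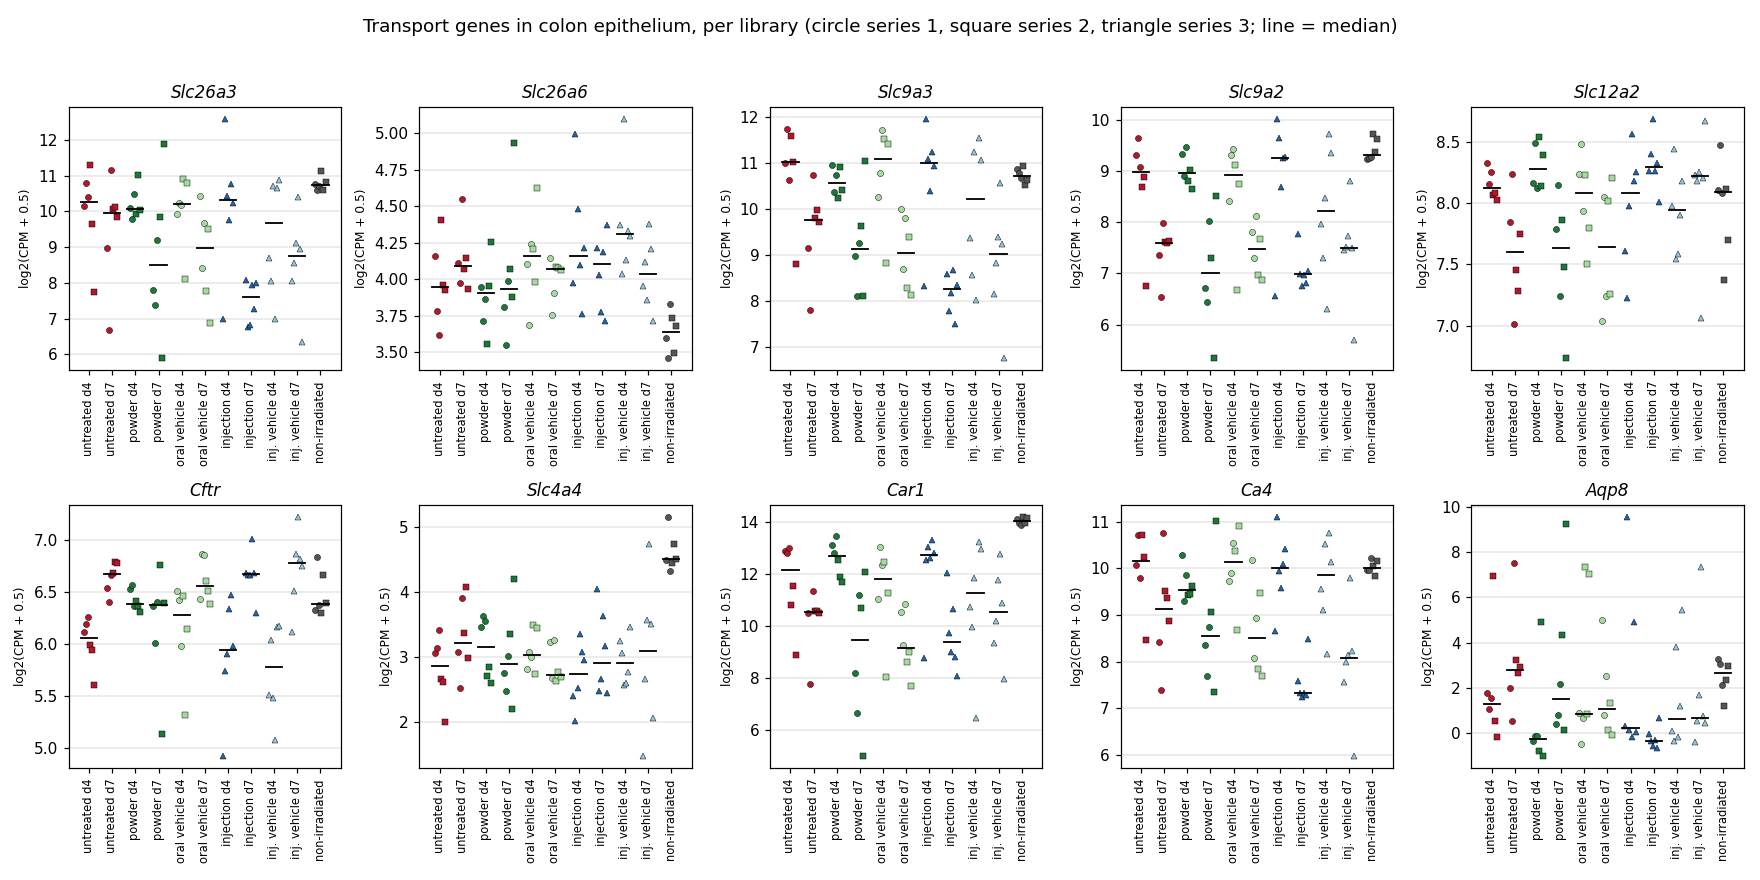
Levels in colon epithelium on the log2(CPM + 0.5) scale, 1 panel per gene and 1 symbol per library, with the median of each group of 6 as a line. The 6 non-irradiated libraries sit together at 15363 to 18979 CPM for Car1, above every irradiated library, while Aqp8 has single libraries far above the rest of their groups.

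After irradiation of colon, Car1 and Slc4a4 fell on both days, Cftr fell at day 4 and Slc9a2 at day 7, and Slc26a6 rose slightly. At day 4, 1 of the 9 members was called higher and 3 lower, where 24.6% of 13306 genes were called higher and 22.3% lower. At day 7 the counts were again 1 higher and 3 lower, where 32.9% of all genes were called higher and 30.8% lower. The median log2 fold change of the members was -0.41 at day 4 and -0.82 at day 7, against 0.02 for all genes on both days.

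Car1 had 472, 5066 and 8197 CPM at day 4 and 217, 1505 and 2614 CPM at day 7, against 15363, 17019 and 18979 CPM in non-irradiated colon. No irradiated library reached the non-irradiated range on either day. The log2 fold change was -2.08 ± 0.76 at day 4 (edgeR adjusted p = 0.0236) and -3.55 ± 0.79 at day 7 (adjusted p = 0.000215, an 11.7-fold difference). The day 4 libraries parted by library series: the 3 of series 1 had 7177 to 8197 CPM and the 3 of series 2 had 472 to 2954 CPM. Within series 1 the day 4 change was -1.08 (adjusted p = 0.417) and within series 2 it was -3.30 (adjusted p = 0.0302), and leaving out replicate 4 or replicate 6 also ended that call (adjusted p = 0.0948 and 0.0737). The day 7 change was -3.52 within series 1 and -3.55 within series 2, called in each.

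Slc4a4 had 3.51, 6.82 and 10.1 CPM at day 4 and 5.21, 8.83 and 16.4 CPM at day 7, against 19.5, 22.2 and 35.1 CPM in non-irradiated colon. Every irradiated library was below every non-irradiated one on both days. Slc4a4 changed by a log2 fold change of -1.83 ± 0.29 at day 4 (edgeR adjusted p = 6.16e-06) and -1.26 ± 0.28 at day 7 (adjusted p = 0.000229). It was -1.52 and -2.17 within series 1 and series 2 at day 4, and -1.48 and -1.05 at day 7, called in each.

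Slc9a2 and Slc9a3, the exchangers that take up sodium for a proton, were lower at day 7 than at day 4. Slc9a2 had 107, 505 and 794 CPM at day 4 and 92.4, 193 and 252 CPM at day 7, against 597, 638 and 839 CPM in non-irradiated colon. It was not called at day 4 (-0.52 ± 0.38) and fell at day 7, by a log2 fold change of -1.93 ± 0.39 (edgeR adjusted p = 6.53e-05), with -1.84 in series 1 and -1.97 in series 2, called in each. Between the days it fell by 1.41 ± 0.39 on the log2 scale (adjusted p = 0.00434), with -1.98 in series 1 and -0.81 in series 2, where the call was lost (adjusted p = 0.362).

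Slc9a3 had 446, 2063 and 3416 CPM at day 4 and 224, 870 and 1696 CPM at day 7, against 1466, 1687 and 1959 CPM in non-irradiated colon. The irradiated ranges are wide and overlap the non-irradiated one on both days. It was not called against non-irradiated colon at day 4 (0.31 ± 0.45) or at day 7 (-0.98 ± 0.46, edgeR adjusted p = 0.059). It was called lower at day 7 by DESeq2 (adjusted p = 0.0439), with only the compared groups in the fit (0.0237), without replicate 6 (0.0493) and without replicate 3, the highest library at 1696 CPM (-1.32, 0.0331), though in neither series alone (-1.07 and -0.87). Day 7 against day 4 gave -1.29 ± 0.46 (adjusted p = 0.0261), with -1.52 in series 1 and -1.07 in series 2, where the call was lost (0.275). It was also lost without replicate 1, 2 or 4 (0.0898, 0.134 and 0.105) and with only the compared groups in the fit (0.0687).

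Slc26a6 had 11.8, 14.9 and 20.7 CPM at day 4 and 14.8, 16.5 and 22.9 CPM at day 7, against 10.5, 11.9 and 13.7 CPM in non-irradiated colon. At day 7 all irradiated libraries were above all non-irradiated ones, and at day 4 the ranges overlap. Slc26a6 changed by a log2 fold change of 0.38 ± 0.16 at day 4 (edgeR adjusted p = 0.0462) and 0.52 ± 0.16 at day 7 (adjusted p = 0.00502). In series 1 and series 2 it was 0.27 and 0.54 at day 4, and 0.61 and 0.43 at day 7, where series 2 alone gave no call (adjusted p = 0.173). The day 4 call stands at the threshold: it was lost within either series, without replicate 1, 2, 4 or 5 (adjusted p = 0.136, 0.0623, 0.185 and 0.112), without the low-count filter (0.0642) and with mitochondrial genes left out (0.0511).

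Cftr, the chloride channel of the crypt, had 48.2, 66.1 and 76.3 CPM at day 4 and 84.3, 102 and 110 CPM at day 7, against 78.2, 83.1 and 114 CPM in non-irradiated colon. At day 4 all irradiated libraries were below the non-irradiated range, a log2 fold change of -0.46 ± 0.17 (edgeR adjusted p = 0.0223), with -0.32 in series 1 and -0.56 in series 2. The call was lost within either series, on library totals (-0.40, adjusted p = 0.0641) and without replicate 2 or 6 (adjusted p = 0.0736 and 0.103). It was not called at day 7 against non-irradiated colon (0.15 ± 0.17), and all day 7 libraries were above all day 4 ones, by 0.61 ± 0.17 (adjusted p = 0.00422). That difference was 0.33 in series 1, where it was not called (adjusted p = 0.136), and 0.85 in series 2.

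Slc26a3 had 216, 1244 and 2504 CPM at day 4 and 103, 997 and 2304 CPM at day 7, against 1546, 1695 and 2225 CPM in non-irradiated colon. Its lowest irradiated libraries were far under the non-irradiated range and its highest ones above it, and neither day was called (-0.41 ± 0.66 and -0.82 ± 0.66). The highest library was 11.6 times the lowest at day 4 and 22.3 times at day 7, against 1.44 times in non-irradiated colon. Ca4 had 355 to 1689 CPM at day 4 and 169 to 1732 CPM at day 7, against 914 to 1203 CPM, and was not called (0.14 ± 0.50 and -0.64 ± 0.50). Slc12a2 averaged 285 ± 24.1 CPM at day 4 and 201 ± 61.5 CPM at day 7, against 258 ± 65.6 CPM in non-irradiated colon (SD, n = 6 each), with no call against non-irradiated colon. Between the days it was -0.53 ± 0.21 (edgeR adjusted p = 0.0498), -0.49 in series 1 and -0.60 in series 2. This call was lost within either series, on library totals (-0.35, adjusted p = 0.289), without the low-count filter (0.0573) and without replicate 1, 3, 4 or 5 (0.0775, 0.128, 0.101 and 0.146).

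Between day 7 and day 4 of untreated irradiated colon, 1 member was called higher and 3 lower, where 18.0% of all genes were called higher and 18.5% lower. Within series 1 alone Car1 (-2.45, adjusted p = 0.0481) was also called lower and Aqp8 (4.74, 0.0201) higher. The vehicle groups gave the same interval of time in other rats. In oral vehicle colon 3 members were called lower and 0 higher at day 7 than at day 4, where 12.7% of genes were called higher and 14.7% lower: Slc9a2 (-1.32 ± 0.38, edgeR adjusted p = 0.00985), Slc9a3 (-1.80 ± 0.47, adjusted p = 0.00418) and Car1 (-2.35 ± 0.75, adjusted p = 0.0183). In series 1 and series 2 these were -1.35 and -1.30, -1.46 and -2.27, and -2.01 and -2.90, and only Slc9a2 in series 1 was called within a series. Cftr was at 0.43 ± 0.17 (adjusted p = 0.0514) and was called higher by DESeq2 (0.0389), on library totals (0.59, 0.00983) and without replicate 1 (0.0457). Slc9a2 also lost its call without replicate 4 (adjusted p = 0.0728), and Car1 without replicate 2 or 4 (0.0602 and 0.108). In injected vehicle colon 1 member was called higher and 0 lower, where 16.0% of genes were called higher and 11.4% lower. This was Cftr, with 69.0 to 149 CPM at day 7 and 33.4 to 71.7 CPM at day 4 (0.94 ± 0.22, adjusted p = 0.00394). Slc9a3 was there at -1.30 ± 0.60 and not called (adjusted p = 0.109). Without replicate 4 both it (-2.05, adjusted p = 0.0144) and Slc9a2 (-1.52, adjusted p = 0.03) were called lower. Ca4 was called lower in the injected vehicle colon at day 7 (-1.61 ± 0.50, adjusted p = 0.0196), and not without replicate 3 or 5 (0.119 and 0.11) nor with only the compared groups in the fit (0.0567).

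**Figure D2:**
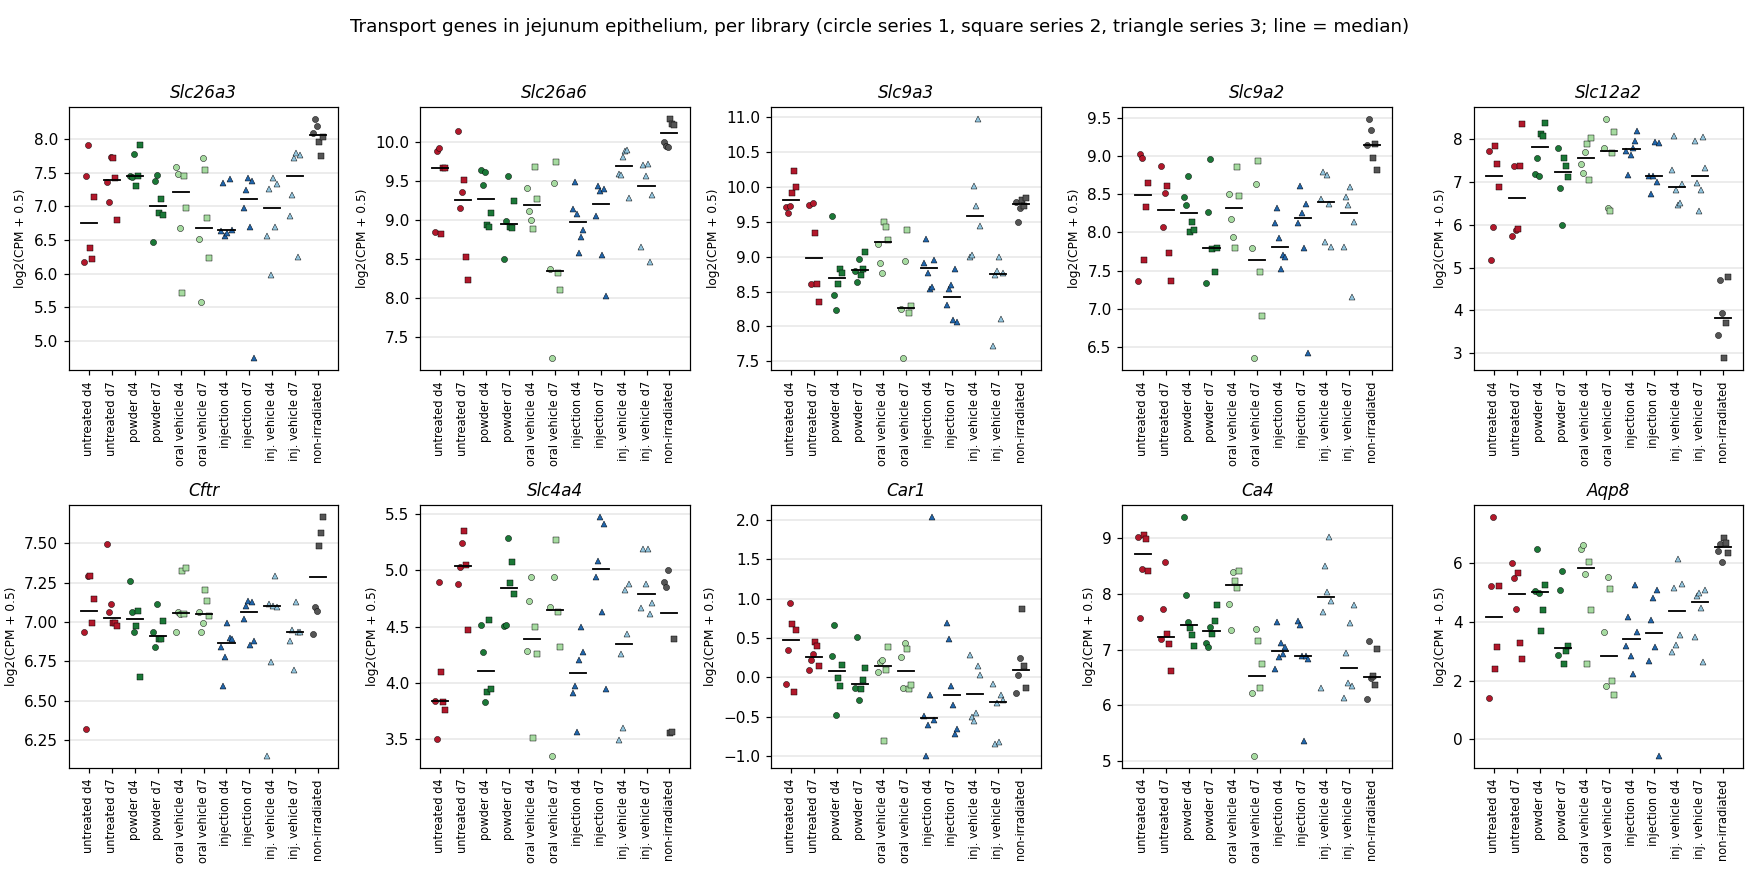
Levels in jejunum epithelium on the log2(CPM + 0.5) scale, drawn as for colon. Slc12a2 has 6.84 to 26.8 CPM in the 6 non-irradiated libraries and at least 35.5 CPM in every untreated irradiated one, and Car1 stays near 1 CPM or below in nearly every library.

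In irradiated jejunum the cotransporter Slc12a2 rose on both days, and Slc26a3 fell on both days, joined at day 7 by the other apical exchangers and Aqp8. At day 4, 1 member was called higher and 1 lower, where 25.0% of 12501 genes were called higher and 18.9% lower. At day 7, 1 was called higher and 5 lower, where 31.4% were called higher and 27.4% lower. The median log2 fold change of the members was -0.42 at day 4 and -0.55 at day 7, against 0.05 and 0.02 for all genes.

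Slc12a2 had 35.5, 144 and 230 CPM at day 4 and 53.3, 112 and 326 CPM at day 7, against 6.84, 13.8 and 26.8 CPM in non-irradiated jejunum. Every irradiated library was above every non-irradiated one. The log2 fold change was 3.04 ± 0.46 at day 4 (edgeR adjusted p = 4.94e-06) and 3.03 ± 0.46 at day 7 (adjusted p = 2.15e-06), an 8.20-fold difference on both days. It was called within each series, with 2.61 and 3.49 at day 4 and 2.46 and 3.59 at day 7. It was also called under all 14 alternative settings on each day, from 2.61 to 3.49 at day 4 and from 2.46 to 3.65 at day 7. Between the days no call was made (adjusted p = 0.999), with -0.15 within series 1 and 0.10 within series 2.

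Slc26a3 had 71.6, 111 and 241 CPM at day 4 and 111, 167 and 212 CPM at day 7, against 215, 265 and 314 CPM in non-irradiated jejunum. The day 7 ranges do not overlap, and at day 4 only replicate 3, at 241 CPM, stood within the non-irradiated range. The log2 fold change was -1.05 ± 0.29 at day 4 (edgeR adjusted p = 0.00384) and -0.68 ± 0.29 at day 7 (adjusted p = 0.0414). In series 1 and series 2 it was -0.87 and -1.27 at day 4, called in series 2, and -0.80 and -0.57 at day 7, called in neither. The day 7 call was also lost without replicate 1, 2, 5 or 6 (adjusted p = 0.0635, 0.101, 0.0612 and 0.146) and without the low-count filter (0.061).

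Slc26a6 had 452, 812 and 974 CPM at day 4 and 300, 614 and 1126 CPM at day 7, against 979, 1110 and 1257 CPM in non-irradiated jejunum. All day 4 libraries were below all non-irradiated ones, yet the fit did not call it (-0.58 ± 0.29, edgeR adjusted p = 0.099). By day 7 it fell by 0.86 ± 0.29 on the log2 scale (adjusted p = 0.0122), with -0.36 in series 1 (adjusted p = 0.531) and -1.40 in series 2, and the call was lost without replicate 5 or 6 (0.0719 and 0.0849).

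Slc9a2 had 164, 318 and 467 CPM at day 7, against 452, 568 and 716 CPM in non-irradiated jejunum, where 1 irradiated library, at 467 CPM, reached into the non-irradiated range. The log2 fold change was -0.90 ± 0.31 (edgeR adjusted p = 0.0138), with -0.82 in series 1 (adjusted p = 0.203) and -1.01 in series 2, and the call was lost without replicate 5 or 6 (0.062 and 0.0536). At day 4 it was not called (-0.70 ± 0.31, adjusted p = 0.0643), and was on library totals or with only the compared groups in the fit (0.0265 and 0.0437). Slc9a3 averaged 944 ± 154 CPM at day 4 and 581 ± 247 CPM at day 7, against 850 ± 69.8 CPM in non-irradiated jejunum (SD, n = 6 each). It was not called at day 4 (0.15 ± 0.23) and fell at day 7 (-0.55 ± 0.23, adjusted p = 0.043), with -0.21 in series 1 (adjusted p = 0.668) and -0.97 in series 2. That call was lost without replicate 2, 4, 5 or 6 (0.0705, 0.0539, 0.148 and 0.206) and without the low-count filter (0.066).

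Aqp8 had 2.15, 22.2 and 188 CPM at day 4 and 6.17, 32.5 and 63.3 CPM at day 7, against 64.2, 91.1 and 113 CPM in non-irradiated jejunum. All day 7 libraries were below the non-irradiated range, and at day 4 only replicate 3, at 188 CPM, was above its median. Aqp8 gave a log2 fold change of -1.43 ± 0.74 at day 4 (edgeR adjusted p = 0.116) and -1.74 ± 0.74 at day 7 (adjusted p = 0.0422). Without replicate 3 the day 4 value was -2.47 (adjusted p = 0.0116). In series 1 and series 2 it was -0.16 and -2.56 at day 4, and -0.95 and -2.22 at day 7, called in neither, and the day 7 call was lost without replicate 2, 3, 5 or 6 (0.0643, 0.0634, 0.15 and 0.14) and without the low-count filter (0.0532).

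The 5 falls at day 7 rest on the scaling. On library totals without TMM factors the median of all genes stood at 0.53 and none of the 5 was called (Slc26a3 -0.19, Slc26a6 -0.41, Slc9a2 -0.45, Slc9a3 -0.10 and Aqp8 -1.29). Relative to the median of all genes each was lower under both scalings, and Slc12a2 was called higher under both.

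Ca4 rose in irradiated jejunum. It had 189, 426 and 529 CPM at day 4 and 97.9, 149 and 379 CPM at day 7, against 69.1, 90.1 and 142 CPM in non-irradiated jejunum. The ranges do not overlap at day 4, with a log2 fold change of 2.02 ± 0.36 (edgeR adjusted p = 3.51e-05), called in series 1 (1.80) and in series 2 (2.19). The day 7 change was 0.88 ± 0.35 (adjusted p = 0.0295), with 1.28 in series 1 and 0.36 in series 2, called in neither. It was also not called without replicate 3, 4 or 5 (0.54, 0.90 and 0.90, adjusted p = 0.208, 0.0582 and 0.0646), replicate 3 being its highest library at 379 CPM.

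Slc4a4, Cftr and Car1 were not called against non-irradiated jejunum. Slc4a4 averaged 16.2 ± 6.67 CPM at day 4 and 32.1 ± 6.54 CPM at day 7, against 22.0 ± 9.17 CPM (SD, n = 6 each), with log2 fold changes of -0.42 ± 0.26 and 0.58 ± 0.26. The day 7 change was called on library totals (1.05, adjusted p = 0.00134), with only the compared groups in the fit (0.62, 0.0337), in series 2 (1.12, 0.00456) and without replicate 1, 2 or 3 (0.0461, 0.0298 and 0.0489). Cftr averaged 130 ± 28.6 CPM at day 4 and 138 ± 20.9 CPM at day 7, against 160 ± 33.8 CPM, with -0.29 ± 0.13 (edgeR adjusted p = 0.0587) and -0.20 ± 0.13. At day 4 it was called lower in series 2 (-0.42, adjusted p = 0.00898) and without replicate 1 or 3 (0.0362 and 0.0279). The same was seen at day 7 in series 2 (-0.59, 0.000519) and without replicate 1 (-0.36, 0.0171). Car1 had at most 1.43 CPM, or 5 to 19 counts a library, so its changes (0.39 ± 0.38 and 0.12 ± 0.37) carry large counting error.

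Between day 7 and day 4 of untreated irradiated jejunum, Slc4a4 rose and Slc9a3 fell, the 1 member called in each direction, where 20.3% of genes were called higher and 20.7% lower. Slc4a4 changed by 0.99 ± 0.26 (edgeR adjusted p = 0.00335), with 0.88 in series 1 (0.227) and 1.10 in series 2. Slc9a3 changed by -0.70 ± 0.23 (adjusted p = 0.0164), with -0.23 in series 1 (0.765) and -1.24 in series 2. The Slc9a3 call was lost without replicate 5 or 6 (0.14 and 0.124), on library totals (-0.38, 0.0726) and with only the compared groups in the fit (0.0536). On library totals 3 members were called higher and 0 lower, with Slc26a3 at 0.79 (adjusted p = 0.00925) and Cftr at 0.45 (0.0101) beside Slc4a4. The calls of Slc26a3 and Cftr rest on that scaling, which shifts all genes of a library together. The share of all genes called on library totals is not given here. Slc9a3 was also the 1 member called lower over the same days in oral vehicle jejunum (-0.64 ± 0.23, adjusted p = 0.0392), where 11.2% of all genes tested rose and 14.4% fell, and in injected vehicle jejunum (-1.33 ± 0.28, adjusted p = 0.000761), where 25.5% rose and 25.2% fell. In the injected vehicle group 3 members were called higher on library totals: Slc4a4 (0.99, adjusted p = 0.00572), Cftr (0.45, 0.0415) and Slc26a3 (0.79, 0.0491), and Slc4a4 also without replicate 6 (0.72, 0.0152). With TMM scaling and all libraries none of these 3 was called, so their calls on library totals rest on the scaling as well. In the oral vehicle group Aqp8 was called lower without replicate 3 or 4 (-2.08 and -2.58, adjusted p = 0.0345 and 0.0159), and Slc26a6 without replicate 4 (-0.84, 0.0396). In that group the Slc9a3 call was lost in series 1 (-0.61) and series 2 (-0.66, 0.0525), on library totals (-0.36, 0.0931), without the low-count filter (0.0542), with only the compared groups in the fit (0.0834) and without replicate 1, 2, 5 or 6 (0.0776, 0.109, 0.181 and 0.137). In the injected vehicle group Slc9a3 was called lower under every setting run. Ca4 was lower at day 7 in all 3 arms: -1.15 ± 0.35 untreated, -1.45 ± 0.35 with oral vehicle and -1.17 ± 0.37 with injected vehicle (adjusted p = 0.00929, 0.0032 and 0.0116). In the untreated arm series 1 alone gave -0.52 and series 2 alone -1.83, in the oral vehicle arm they gave -1.42 and -1.47, and in both arms only series 2 was called. Ca4 lost its call without replicate 5 in the untreated arm (-0.97, 0.0724), and without replicate 3 or 5 (0.0704 and 0.115) and on library totals (-0.63, 0.0995) in the injected vehicle arm.

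**Figure D3:**
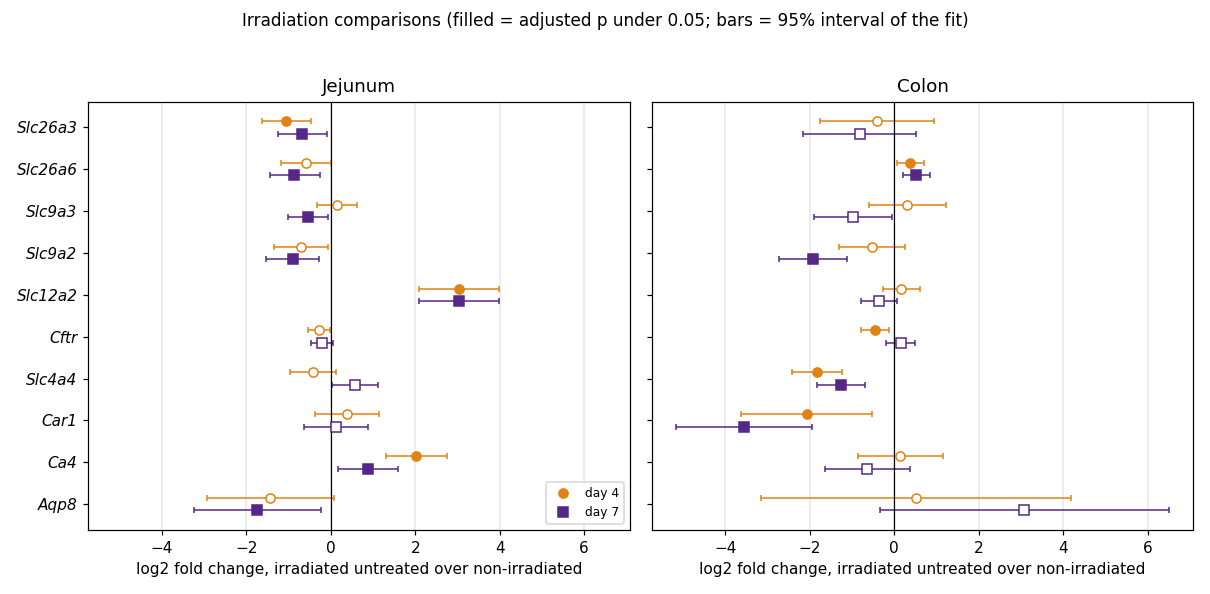
Log2 fold change of irradiated untreated over non-irradiated rats for each gene, jejunum left and colon right, with 95% intervals of the edgeR fit. Filled symbols have adjusted p under 0.05. Slc12a2 lies at 3.04 and 3.03 in jejunum and at 0.16 and -0.37 in colon, while Car1 lies at -2.08 and -3.55 in colon.

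The tissues were set against each other in one fit of 84 libraries, in which a positive difference means a higher log2 fold change in jejunum than in colon. At day 4 the difference was called for 3 of the 9 members, 2 positive and 1 negative, where 13.6% of 13741 genes were called positive and 8.22% negative. At day 7 it was called for 5 members, 3 positive and 2 negative, where 25.4% were positive and 14.2% negative. Slc12a2 had the difference with the smallest p on both days, 2.93 ± 0.50 at day 4 (edgeR adjusted p = 1.04e-05) and 3.50 ± 0.50 at day 7 (adjusted p = 9.71e-08). In series 1 and series 2 it was 2.66 and 3.15 at day 4 and 3.00 and 3.79 at day 7, called in each.

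Slc4a4 differed by 1.45 ± 0.40 at day 4 (edgeR adjusted p = 0.00549) and 1.92 ± 0.39 at day 7 (adjusted p = 8.94e-05), with 0.84 in series 1 (adjusted p = 0.26) and 2.20 in series 2 at day 4 and 1.70 and 2.14 at day 7. Slc26a6 differed by -0.93 ± 0.33 (adjusted p = 0.0363) and -1.30 ± 0.34 (adjusted p = 0.00156). At day 4 its difference was -0.56 in series 1 (0.454) and -1.34 in series 2, and was lost without replicate 1, 4 or 5 (0.132, 0.171 and 0.0884). For day 7 it was -0.88 in series 1 (0.157) and -1.87 in series 2. Car1 differed by 2.52 ± 0.98 at day 4 (adjusted p = 0.0541; by DESeq2 2.47 and 0.0185, without replicate 2 2.74 and 0.048) and 3.77 ± 0.97 at day 7 (adjusted p = 0.00145), the jejunal side resting on a few counts, with 3.93 in series 1 and 3.46 in series 2 (0.0705) at day 7. Aqp8 differed at day 7 by -4.78 ± 1.84 (adjusted p = 0.0321), where colon replicate 3 had 186 CPM: without replicate 3 of every group it was -0.41 (adjusted p = 0.895). It was also lost without replicate 2 or 5 (0.0561 and 0.0577) and within either series (-4.04 and -2.93). Ca4 differed by 1.93 ± 0.63 at day 4 and 1.59 ± 0.63 at day 7 (adjusted p = 0.0203 and 0.0371). The Ca4 difference was called in neither series alone (1.66 and 2.09 at day 4, 1.88 and 1.06 at day 7), nor without replicate 1, 4 or 5 on both days, without replicate 3 at day 4 (0.0517), nor without replicate 2 (0.102) or the low-count filter (0.0646) at day 7.

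Aqp8 in colon was uneven. At day 4 it had 0.405, 2.03 and 122 CPM and at day 7 0.968, 6.48 and 186 CPM, against 1.81, 5.98 and 9.36 CPM in non-irradiated colon. In each irradiated group 1 library was far above the rest. The same held for other groups: the highest libraries had 610 CPM with powder at day 7, 759 CPM with injection at day 4 and 160 CPM with injected vehicle at day 7, where the group medians were 2.65, 0.679 and 1.08 CPM. In the fits of all libraries no comparison of 2 colon groups called Aqp8 (for example 0.52 ± 1.81 and 3.08 ± 1.68 for day 4 and day 7 against non-irradiated colon).

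**Figure D4:**
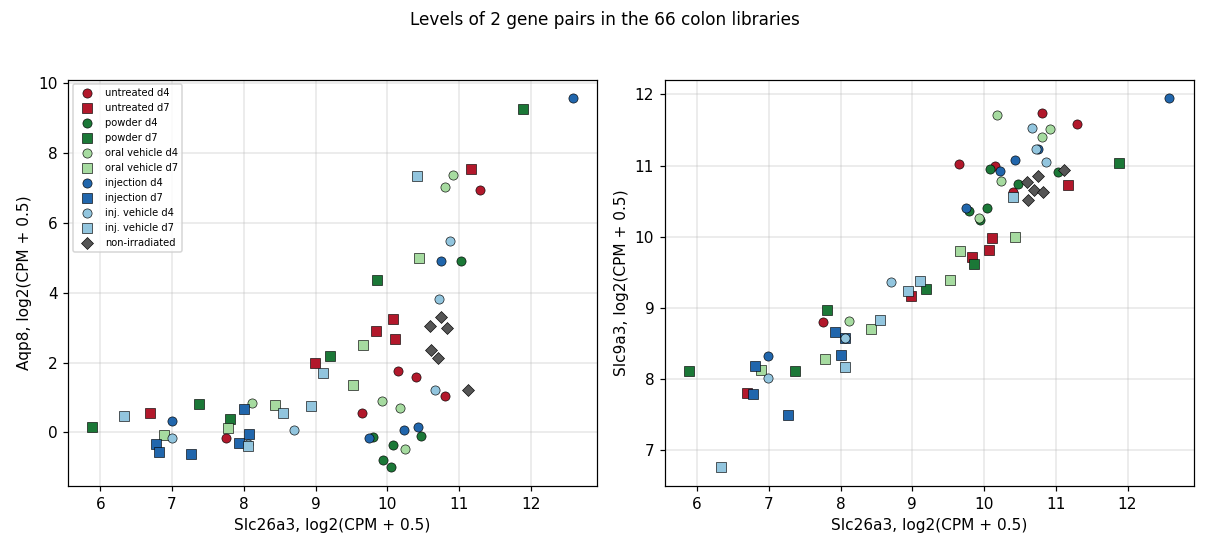
Levels of Aqp8 (left) and Slc9a3 (right) against Slc26a3 on the log2(CPM + 0.5) scale, 1 symbol per colon library (66 in all). Slc9a3 follows Slc26a3 over the whole range, while the high Aqp8 libraries, up to 759 CPM, stand among those with high Slc26a3, up to 6143 CPM.

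As a description over 66 colon libraries, with deviations from each group's mean log2 level, Slc26a3 correlated with Slc9a3 (Pearson r = 0.94), Ca4 (0.92), Slc9a2 (0.88), Car1 (0.83) and Aqp8 (0.74). Slc9a2 correlated with Car1 at 0.92, and with Aqp8 at 0.49. Slc26a6 correlated at 0.64 with Ca4, 0.62 with Aqp8, 0.58 with Slc26a3, 0.41 with Slc9a2 and 0.31 with Car1. The secretory cotransporter Slc12a2 had negative values with each other gene but Cftr (0.24), from -0.18 with Car1 to -0.59 with Slc26a6, and -0.46 with Slc26a3. Cftr and Slc4a4 had positive values of 0.56 and 0.54 with Slc26a3 and 0.74 and 0.67 with Car1. Cftr was at -0.04 with Slc26a6, and Slc4a4 at -0.26 with Slc12a2. All values of a library share its depth and its mix of cells. Slc26a3 also correlated with the summed colon region markers (0.79) and with the fibroblast markers (-0.76), whose part was not tested.

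In jejunum Slc26a6 correlated with Slc9a2 (0.90) and Slc26a3 with Aqp8 (0.84), over the same number of libraries. Slc12a2 stood against Slc26a6 (-0.80) and Slc9a2 (-0.73), and correlated with the summed proliferating crypt markers (0.71), while Slc26a6 and Slc9a2 correlated with the jejunal enterocyte markers (0.87 and 0.89). Among genes with a mean of at least 5 CPM, the nearest in level over 66 libraries were Dpep1, Chp2 and Trpm6 for colonic Slc26a3 (0.96 each), Hpgd for colonic Slc9a2 (0.98), Tst for colonic Car1 (0.96), Noct for colonic Aqp8 (0.89), Myc for jejunal Slc12a2 (0.97), Dgat1 for jejunal Slc26a6 (0.97) and the sucrase-isomaltase gene Si for jejunal Slc26a3 (0.90). The nearest to Cftr was Cluh in colon (0.85) and L3mbtl3 in jejunum (0.67), and to Slc4a4 a gene listed as AC094055.1 in colon (0.86) and Bche in jejunum (0.89). For these nearest genes the group means were not removed, so differences between groups enter the correlations.

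Groups were also ordered by median, gene by gene. This order sets the groups with the closest medians side by side, so overlap of neighbours does not show that groups were alike. The order was made for these genes only, with no count over all genes beside it. Of 200 neighbouring pairs over 10 genes, both tissues and 11 groups a tissue, 4 had ranges that do not overlap. Each was the pair of the non-irradiated group and the group next to it. Car1 and Slc4a4 in colon and Slc26a6 in jejunum had the non-irradiated group at the top, and Slc12a2 in jejunum had it at the bottom. For jejunal Slc26a6 a group further down, untreated at day 7, reached 1126 CPM, inside the non-irradiated range of 979 to 1257 CPM. In colon the injection group at day 7 had the lowest medians of Slc26a3 (198 CPM), Slc9a3 (307 CPM) and Slc9a2 (126 CPM). It also had the lowest of Ca4 (161 CPM) and Aqp8 (0.301 CPM), and the highest of Slc12a2 (313 CPM). All injected libraries, with preparation or vehicle, form a library series that holds no other group. In these orders their place therefore cannot be told apart from a difference between library series. In jejunum the oral vehicle group at day 7 had the lowest medians of Slc26a6 (325 CPM), Slc9a2 (200 CPM), Slc9a3 (308 CPM) and Aqp8 (7.78 CPM).

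**Figure D5:**
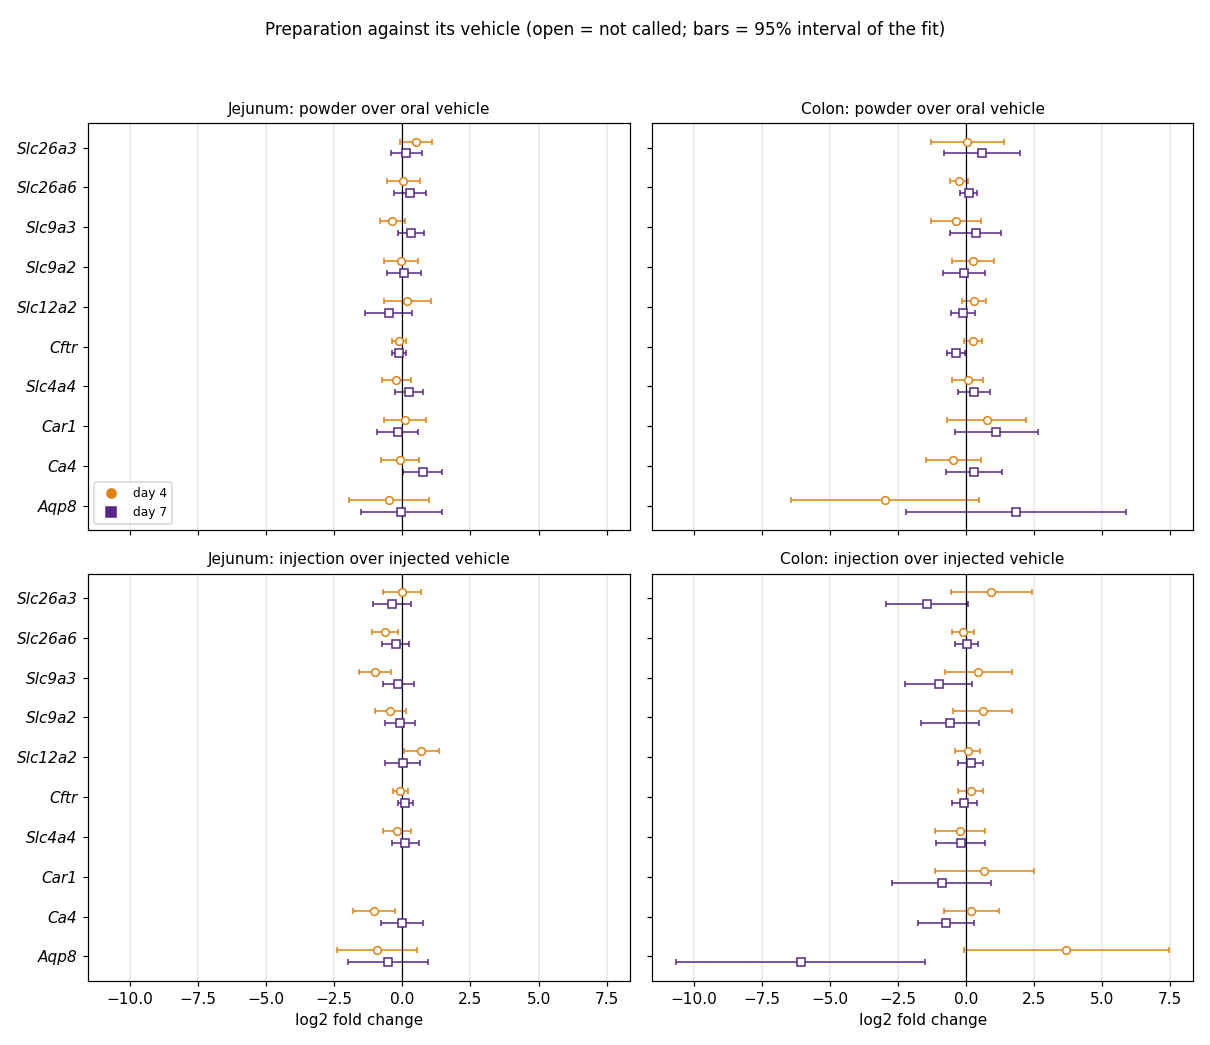
Log2 fold change of each preparation over its own vehicle, with 95% intervals of the edgeR fit, powder above and injection below, jejunum left and colon right. No symbol is filled, meaning no call, and Aqp8 in colon has the widest intervals, down to -10.63 for injection at day 7.

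No member was called by edgeR in any comparison of a preparation with its vehicle, nor in any of oral vehicle with untreated irradiated rats. At an unadjusted p under 0.05, the powder comparisons held 0 members in colon at day 4, 1 in colon at day 7, 0 in jejunum at day 4 and 0 in jejunum at day 7. The injection comparisons held 0, 1, 3 and 0 in the same order. DESeq2 called 0 members in all of them. Over all genes edgeR called 11.8% with powder in colon at day 4, 0.00% with powder in colon at day 7 and 0.008% with powder in jejunum on either day, and 0.00% in the 4 injection comparisons. Genes with an unadjusted p under 0.05 made up 28.3%, 3.47%, 4.17% and 3.57% of those tested with powder (colon day 4, colon day 7, jejunum day 4, jejunum day 7) and 3.61%, 1.73%, 8.31% and 2.81% with injection.

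With powder in colon at day 4, Car1 had 3309, 6659 and 11232 CPM, against 260, 3844 and 8349 CPM with oral vehicle. The ranges overlap, and the log2 difference was 0.76 with a 95% interval of -0.71 to 2.22. Slc26a3 differed by 0.05 (-1.28 to 1.38), Slc4a4 by 0.07 (-0.51 to 0.64), Slc12a2 by 0.28 (-0.15 to 0.72) and Cftr by 0.25 (-0.08 to 0.59). None was called, and the intervals of Car1 and Slc26a3 are wide. At day 7 in colon Cftr had 34.6, 82.7 and 108 CPM with powder, against 83.3, 93.8 and 116 CPM with oral vehicle (-0.36, interval -0.69 to -0.02, unadjusted p = 0.0375, edgeR adjusted p = 1).

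With injection in colon at day 7, Aqp8 had 0.147, 0.301 and 1.08 CPM, against 0.262, 1.08 and 160 CPM with injected vehicle. The fit gave -6.07 (interval -10.63 to -1.52, unadjusted p = 0.0107, edgeR adjusted p = 1), with 1 vehicle library far above the others. Slc26a3 had 109, 198 and 268 CPM with injection, against 80.2, 432 and 1359 CPM with vehicle (-1.44, interval -2.95 to 0.06). In jejunum at day 4, 3 members had an unadjusted p under 0.05 with injection against injected vehicle, and none was called. The mitochondrial share of counts was 21.8% ± 8.86 with injection and 18.5% ± 9.06 with vehicle (SD, n = 6 each). Smooth muscle markers summed to 6.61 to 403 CPM with injection and 8.55 to 35.1 CPM with vehicle. The part of these measures was not tested. Slc9a3 had 371, 458 and 608 CPM with injection, against 508, 774 and 2013 CPM with vehicle (-1.0 ± 0.28, edgeR adjusted p = 0.505). Slc26a6 had 380, 503 and 716 CPM, against 622, 833 and 956 CPM (-0.64 ± 0.23, adjusted p = 0.58). Slc12a2 had 143, 217 and 295 CPM, against 87.7, 118 and 269 CPM (0.69 ± 0.31, adjusted p = 0.58). All 3 ranges overlap. Car1 did not pass the low-count filter in injected jejunum and was not tested there.

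Oral vehicle against untreated irradiated rats gave 1 member at an unadjusted p under 0.05 in jejunum on each day and 0 in colon on either day, where edgeR called 0.00752% of genes in colon at day 7, 0.008% in jejunum at day 7 and 0.00% at day 4 in both. The share of genes with an unadjusted p under 0.05 was 2.81% and 4.82% in colon at day 4 and day 7, and 9.2% and 4.69% in jejunum. In jejunum at day 4 all oral vehicle libraries were lower for Slc9a3, with 434, 594 and 721 CPM, against 792, 904 and 1202 CPM untreated (-0.70 ± 0.23, edgeR adjusted p = 0.45). It was -0.64 ± 0.23 at day 7 (adjusted p = 0.729).

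A wider list of 66 transport genes, of which 63 were found, was read beside the members. In irradiated colon 10 of 55 tested were called higher and 10 lower at day 4, and 11 higher and 24 lower at day 7, where 24.6% and 32.9% of all genes tested rose and 22.3% and 30.8% fell. Clca4, of a family of secreted chloride channel regulators, averaged 4803 ± 4148 CPM at day 4 and 4628 ± 2140 CPM at day 7, against 49.3 ± 19.3 CPM in non-irradiated colon (SD, n = 6 each), with log2 fold changes of 6.29 ± 0.64 and 6.52 ± 0.64 (edgeR adjusted p = 2.59e-09 and 2.64e-10). Guca2a, which encodes guanylin, a peptide that drives chloride secretion through guanylate cyclase C, averaged 343 ± 170 CPM at day 7, against 2841 ± 349 CPM (-3.14 ± 0.41, adjusted p = 4.58e-08). Slc4a7, a sodium-bicarbonate cotransporter related to Slc4a4, rose where Slc4a4 fell, at 57.9 ± 17.5 CPM at day 7, against 18.9 ± 3.61 CPM (1.59 ± 0.23, adjusted p = 2.43e-07).

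In irradiated jejunum 11 of 53 of the wider list were called higher and 13 lower at day 4, and 13 higher and 20 lower at day 7, where 25.0% and 31.4% of all genes tested rose and 18.9% and 27.4% fell. Stk39, a kinase that activates the Slc12a2 cotransporter, rose, with 41.6 ± 9.81 CPM at day 4 and 48.9 ± 15.7 CPM at day 7, against 17.6 ± 4.85 CPM (1.26 ± 0.18 and 1.48 ± 0.18, edgeR adjusted p = 2.12e-06 and 7.51e-08). Carbonic anhydrase 13, listed as Ca13, rose by 1.65 ± 0.21 and 1.76 ± 0.21 (adjusted p = 3.3e-07 and 5.11e-08). With powder against oral vehicle in colon at day 4, 3 of 55 were called higher and 4 lower, where 11.8% of all genes tested were called in either direction. Clca4 fell there, to 779 ± 637 CPM with powder, against 5780 ± 4682 CPM with vehicle (-2.91 ± 0.54, adjusted p = 0.0018). There 4 of 4 neutrophil markers tested were called lower (the list summed to 2.26 to 19.0 CPM with powder, against 4.72 to 101 CPM with vehicle) and 2 of 7 goblet cell markers higher (4708 to 16521 CPM, against 4501 to 7288 CPM), whose part was not tested. In the other comparisons of a preparation with its vehicle, and in those of oral vehicle with untreated rats, 0 of the wider list were called by edgeR.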

How the data were processed

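The 2 deposited tables hold raw counts of reads per gene symbol, with no normalization by the authors, for colon and jejunum epithelium. The 36 libraries found in both tables had identical counts and were used once. Per the submitters' processing notes, reads were aligned with STAR 2.7.10a to the rat build mRatBN7.2; no source used here gives the counter, the annotation or the strandedness, so an overlapping or antisense gene cannot be told apart from a member.

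Counts were fitted with the edgeR 4.0.16 quasi-likelihood F test (R 4.3.3), TMM scaling and the default filter of filterByExpr. Each tissue had a fit of 42 libraries, with library series as a term, and a fit of 24 injected libraries, all of series 3. Tissues were compared in a fit of 84 libraries. Series 1 and 2 hold 3 libraries of every other group each. SE is the log2 fold change over the root of F, and 95% intervals use the t quantile at the residual degrees of freedom. DESeq2 1.42.0, other filters, single series, library totals and leaving out each replicate number were alternatives. The fits were tested on simulated counts: in the colon day 4 comparison (13150 genes), 99% of genes with a log2 change of 2 and 30% of those with 1 were recovered, and in the tissue difference at day 4 (13310 genes) 69% and 5%. The simulation gave all genes the same dispersion, had no effect of library series, and changed no gene of low level. Its shares therefore do not apply to members with wider spread, such as Slc26a3, Car1 and Aqp8 in colon, whose missing calls they do not inform. No 2 libraries of a group agreed within sampling noise (lowest chi-square per degree of freedom 9.92 over 330 pairs). Replicate numbers were not taken to pair the samples. Precision is limited by spread between libraries, and by counting error for Car1 in jejunum and Aqp8 in colon.

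The members, the gene lists and the rule for other genes named (up to 4 of the wider list with the smallest p in a comparison, and up to 3 genes with the highest correlation) were chosen with earlier results of these data known. The scaling by library totals and the block by library number were added after seeing the data.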

Additional observations from a re-analysis of the deposited data

Results flagged for a closer look

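In 31 of 214 sets of 6 libraries (1 gene in 1 group) the highest library stood apart from the other 5 by Dixon's criterion, taken on CPM, and 11 of the 31 are Aqp8. For independent, normally distributed values the criterion flags about 1 in 20, or 10.7 sets. CPM values are skewed upward and genes of a library covary, so 10.7 is not a chance rate for these sets. None was a lowest library, and on a scale skewed upward high libraries are flagged more readily. All values are CPM.

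In untreated irradiated colon at day 7, replicate 3 stood apart for Aqp8 (186), Ca4 (1732) and Slc26a6 (22.9), and at day 4 replicate 4 for Aqp8 (122). With powder in colon, replicate 6 at day 7 stood apart for Slc26a3 (3785), Slc26a6 (30.0), Slc9a3 (2107), Ca4 (2080) and Aqp8 (610), and replicate 5 at day 4 for Aqp8 (29.6). With oral vehicle in colon, replicate 1 at day 7 did so for Aqp8 (31.6). With injection in colon, replicate 2 at day 4 stood apart for Slc26a3 (6143) and Aqp8 (759), and at day 7 replicate 1 for Slc9a2 (218) and Car1 (4182) and replicate 6 for Ca4 (359) and Aqp8 (1.08). With injected vehicle in colon, replicate 4 at day 7 stood apart for Slc26a3 (1359), Ca4 (882) and Aqp8 (160), and at day 4 replicate 3 for Slc26a6 (33.7) and replicate 6 for Aqp8 (43.8).

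In jejunum, untreated replicate 3 at day 4 stood apart for Slc4a4 (29.3) and Aqp8 (188), and untreated replicate 1 at day 7 for Cftr (180). With powder at day 4, replicate 1 did so for Slc9a3 (764) and Ca4 (666) and replicate 2 for Aqp8 (87.8). With injection at day 4 it was replicate 5 for Car1 (3.61), and with injected vehicle at day 4 replicate 5 for Slc9a3 (2013) and replicate 2 for Slc12a2 (269).

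The irradiation response was called different between jejunum and colon, by the interaction term of the edgeR fit, at day 4 for Slc12a2 (2.93), Slc4a4 (1.45), Ca4 (1.93) and Slc26a6 (-0.93), and at day 7 for Slc12a2 (3.5), Slc4a4 (1.92), Car1 (3.77), Ca4 (1.59), Slc26a6 (-1.3) and Aqp8 (-4.78), on the log2 scale. Some of these calls are fragile. Without replicate 3 the Aqp8 difference was -0.41 (edgeR adjusted p = 0.895). Ca4 was called in neither series alone on either day, and Slc26a6 at day 4 was lost without replicate 1, 4 or 5.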

How the results depend on the processing

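Counts of members called are given per comparison. Against non-irradiated colon at day 4, 4 were called, 1 in series 1 alone and 2 in series 2 alone. Against non-irradiated jejunum 2 were called at day 4 (1 in series 1 alone) and 6 at day 7 (1 in series 1 alone, 2 on library totals, 3 without the low-count filter). Between day 7 and day 4, 4 were called in untreated colon (1 in series 2 alone) and 2 in untreated jejunum (0 in series 1 alone, 1 with only the compared groups in the fit). The same days in oral vehicle gave 3 in colon (1 in series 1 and 0 in series 2) and 1 in jejunum (0 in either series, on library totals, without the filter or with only the compared groups), and in injected vehicle jejunum 1 (4 on library totals, 3 higher and 1 lower). The tissue difference in response was called for 3 members at day 4 (1 in series 1) and 5 at day 7 (3 in series 1). In these single series fewer of all genes were called as well, for example 166 in series 1 against 5128 with all libraries in untreated jejunum between the days, except in oral vehicle jejunum in series 2 (4718 against 3210).

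Leaving out 1 replicate number at a time gave 2 to 4 calls in colon and 2 to 4 in jejunum at day 4 against non-irradiated tissue, and 1 to 7 in jejunum at day 7. Between the days it gave 2 to 4 in untreated colon, 1 to 2 in untreated jejunum, 1 to 4 in oral vehicle colon, 1 to 3 in injected vehicle colon, 0 to 3 in oral vehicle jejunum and 1 to 2 in injected vehicle jejunum. The numbers of all genes called are given above for single series only. Whether the counts of members follow those numbers in the other alternatives is therefore not shown.

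On library totals Cftr reversed between non-irradiated jejunum and colon (-0.04, edgeR adjusted p = 0.853) and over the days in injected vehicle jejunum (0.45, adjusted p = 0.0415). Library totals, chosen as an alternative after seeing the data, moved the median of all genes to between -0.87 and 0.53.

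The labels do not say that replicate numbers pair samples, and same-numbered samples deviated together in some comparisons and not in others. The median r of a comparison ran from -0.65 (untreated jejunum, day 7 against day 4) to 0.59 (jejunum day 7, oral vehicle against untreated). In the latter 4 of 6 pairs had r over 0.1 and the highest r was 0.93. In no comparison did every pair deviate together (lowest r between -0.79 and -0.03). Colon and jejunum libraries of the same library number had r over 0.1 in 36 of 66 pairs (median 0.12), against 102 of 330 pairs of different numbers (median -0.03). With the number as a replicate block, Slc9a3 in colon at day 7 (-1.06, edgeR adjusted p = 0.0481) and Cftr over the days in oral vehicle colon (0.44, 0.0451) were called, and Aqp8 in jejunum at day 7 (-1.72, 0.0515) and its tissue difference at day 7 (-3.31, 0.18) were not. A block by library number, added after seeing the data, gave -2.33 (0.348) for that difference and 2.73 (0.0444) for Car1 at day 4, and neither block changed another call. Counting error limits Car1 in jejunum, with as few as 5 counts in an untreated or non-irradiated library.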
